A study of Homo sapiens with 16 samples.

Results

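MITF and JUNB were mapped in unstimulated A375 melanoma cells, where most listed sites of either factor did not overlap the other. The sites described are the peaks of 1 MITF library and 1 JUNB library from vehicle-treated cells that lie on chromosomes 1 to 22 and X, with identical intervals counted once. They comprise 5610 MITF sites and 38272 JUNB sites, 43882 in all, of the 399028 peaks listed in the 10 peak lists of the series. An MITF and a JUNB site that shared at least 1 bp were called sites of both factors. All other sites were called MITF alone or JUNB alone.

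The series holds 16 chromatin immunoprecipitation libraries from A375, an established BRAF-mutant human melanoma line. Of these, 10 have peak lists and 6 are inputs, which were not analysed here. Every culture was starved for 2 h and then treated for 2 h with TGFB1 at 10 ng/mL or with its vehicle, which contained 4 mM HCl and 1 mg/mL BSA. The groups used were vehicle MITF, JUNB, H3K27ac, ATF3 and SMAD2/3 and, as further readouts, the TGFB1 libraries of the same antibodies, with 1 library in each group. MITF had its own experiment date, JUNB shared a date with ATF3, and H3K27ac shared one with SMAD2/3. Antibody and date therefore cannot be told apart in any contrast of MITF with JUNB.

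MITF is a basic helix-loop-helix leucine zipper factor that directs the pigment cell lineage. It binds E-boxes of the form CACGTG and the extended form TCATGTG, and shares a group of lysosomal and autophagy target genes with its relatives TFEB and TFE3. JUNB is a subunit of AP-1, which binds DNA as a dimer of JUN with FOS or ATF family proteins. Its elements were searched here as TGANTCA and the related TGACGTCA. AP-1 acts mostly at enhancers that lie away from genes, downstream of the MAPK pathway that mutant BRAF activates. Acetylation of histone H3 at lysine 27 (H3K27ac) marks active promoters and enhancers. In melanoma, a high level of MITF goes with pigmented, differentiated cells, while high AP-1 activity with AXL and EGFR goes with a dedifferentiated, invasive state.

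Promoters of genes named from the gene lists or from the strongest sites show these sequence elements. The windows shown were picked among the named genes with a summit inside the window, and JUNB promoter summits elsewhere in the list had a higher -log10 p. Each line gives a 300-base RefSeq promoter window on GRCh38.p14, 5′ to 3′ along the gene's own strand, from 250 bases before to 50 bases after a transcription start. Capitals mark the E-box CACGTG, the extended E-box TCATGTG, the AP-1 element TGANTCA and the CRE-type element TGACGTCA on either strand. On the opposite strand the extended form reads CACATGA. The first pair, LAMP1 (a lysosomal membrane glycoprotein) and GPNMB (a melanosomal and lysosomal glycoprotein), carried sites of both factors. The second pair, UCKL1 (a uridine kinase homologue) and VPS51 (a subunit of the GARP tethering complex), carried MITF alone. The last pair, SPRED2 (an inhibitor of RAS signalling to RAF) and TFE3, carried JUNB alone.
LAMP1 (chr13:113296989-113297288, plus strand): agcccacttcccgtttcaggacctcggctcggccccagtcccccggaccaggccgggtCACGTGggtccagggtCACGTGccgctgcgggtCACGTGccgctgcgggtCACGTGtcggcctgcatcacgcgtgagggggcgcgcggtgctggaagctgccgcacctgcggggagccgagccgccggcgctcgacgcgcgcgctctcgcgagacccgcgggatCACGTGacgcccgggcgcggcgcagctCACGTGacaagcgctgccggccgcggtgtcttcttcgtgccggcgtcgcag
GPNMB (chr7:23246525-23246824, plus strand): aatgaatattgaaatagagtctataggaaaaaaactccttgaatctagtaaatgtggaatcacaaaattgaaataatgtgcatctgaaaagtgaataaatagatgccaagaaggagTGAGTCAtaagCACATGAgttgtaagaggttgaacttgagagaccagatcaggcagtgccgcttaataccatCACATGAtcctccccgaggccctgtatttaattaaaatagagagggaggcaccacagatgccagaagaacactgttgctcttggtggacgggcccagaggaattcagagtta
UCKL1 (chr20:63956367-63956666, minus strand): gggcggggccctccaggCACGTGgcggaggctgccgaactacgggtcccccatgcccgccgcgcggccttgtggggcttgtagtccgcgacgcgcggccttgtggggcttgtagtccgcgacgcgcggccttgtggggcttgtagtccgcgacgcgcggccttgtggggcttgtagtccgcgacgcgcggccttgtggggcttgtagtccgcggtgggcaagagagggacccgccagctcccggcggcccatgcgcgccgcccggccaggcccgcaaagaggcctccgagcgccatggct
VPS51 (chr11:65095964-65096263, plus strand): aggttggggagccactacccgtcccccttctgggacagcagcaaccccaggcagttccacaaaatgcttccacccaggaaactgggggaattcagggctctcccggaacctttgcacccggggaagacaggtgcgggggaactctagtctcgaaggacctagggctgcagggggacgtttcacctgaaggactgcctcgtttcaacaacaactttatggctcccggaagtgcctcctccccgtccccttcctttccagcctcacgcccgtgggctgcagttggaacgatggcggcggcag
SPRED2 (chr2:65366729-65367028, minus strand): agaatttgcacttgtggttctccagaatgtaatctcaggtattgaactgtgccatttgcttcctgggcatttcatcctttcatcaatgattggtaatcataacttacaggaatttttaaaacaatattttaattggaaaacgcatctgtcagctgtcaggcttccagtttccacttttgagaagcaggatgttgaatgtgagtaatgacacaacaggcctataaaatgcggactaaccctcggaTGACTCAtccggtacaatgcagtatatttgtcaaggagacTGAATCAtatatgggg
TFE3 (chrX:49043308-49043607, minus strand): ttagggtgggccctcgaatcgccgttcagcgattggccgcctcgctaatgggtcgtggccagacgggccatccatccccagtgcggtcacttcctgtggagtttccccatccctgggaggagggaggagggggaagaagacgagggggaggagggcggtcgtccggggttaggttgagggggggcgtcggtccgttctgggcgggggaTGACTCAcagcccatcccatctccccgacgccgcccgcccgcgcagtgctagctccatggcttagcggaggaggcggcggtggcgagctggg
The LAMP1 window held 6 copies of CACGTG, with the MITF summit at position -137 from the start. In the GPNMB window, 1 TGANTCA element and 2 copies of TCATGTG were found. The UCKL1 window held 1 CACGTG at its far upstream edge, and the VPS51 window held none of the 4 elements. Both JUNB windows held TGANTCA, with 2 copies at SPRED2 (TGACTCA and TGAATCA) and 1 at TFE3 (TGACTCA). Of the further windows that the same rule selected, those of FLCN (both factors) and SIRT6 (MITF alone) held none of the elements, and that of JUND (JUNB alone) held 1 TGACGTCA.

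The signal at called summits was read from each peak list, and library depth itself was not measured. The pileup at the summit, on the scaled read scale of the peak caller, had a median of 13 reads in the MITF list and 19 reads in the JUNB list. The local background at these summits had a median of 1.04 reads for MITF and 2.36 reads for JUNB. The vehicle H3K27ac list held 79038 regions. The cells carried H3K27ac within 1 kb of a gene end at 6 of 10 melanocyte lineage markers, which were PAX3, MITF, KIT, PMEL, EDNRB and SOX10. The defining pigment genes MLANA, TYRP1, TYR and DCT had none. The dedifferentiated melanoma markers NES, EGFR, NGFR and AXL carried the mark. Of 4 blood markers 1 did (CD3E), and of 2 endothelial and 3 epithelial markers none did. Stretches that hold no annotated gene, taken as the longest of each chromosome, contained 422 MITF sites (7.52%) and 438 JUNB sites (1.14%), and the MITF list from TGFB1-treated cells had 0.825% of its sites there. None of the 422 MITF sites overlapped H3K27ac. What places sites in these stretches was not tested, and the acetylated shares away from gene ends are given with and without them. Intervals below are 95% Wilson intervals for shares and 95% Newcombe intervals for differences, and cover counting error over sites only. With 1 library in each group, no difference has a replicate check and no p-value was computed.

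A minority of MITF sites coincided with JUNB, and a much smaller share of JUNB sites coincided with MITF. Of the MITF sites, 1484 (26.5%, interval 25.3 to 27.6) overlapped a JUNB site, and 4126 were MITF alone. Of the JUNB sites, 1513 (3.95%, 3.76 to 4.15) overlapped an MITF site, and 36759 were JUNB alone. When the JUNB list was shortened to as many sites as the MITF list had, keeping those of highest -log10 p, the shares were 8.29% of MITF sites and 8.32% of JUNB sites. A reciprocal overlap of 50% left 15.0% of MITF sites and 2.20% of JUNB sites shared.

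Among overlapping pairs, summits lay closer together away from gene ends than at them. The overlap rule itself keeps summits near each other, since median site widths were 252 bp for MITF and 210 bp for JUNB. Whether summits lay closer than this rule imposes was not tested. The 1524 overlapping pairs had a median distance of 66 bp between summits, with quartiles of 29 and 150 bp. Away from gene ends, 1105 pairs had a median distance of 57 bp, and 46.8% of them lay within 50 bp. At gene ends, 419 pairs had a median distance of 99 bp, and 28.4% lay within 50 bp. Overlap was more frequent among stronger sites of either factor. It covered 20.6%, 26.8% and 31.9% of the weakest, middle and strongest tertile of MITF sites by -log10 p, and 2.33%, 2.99% and 6.54% of the same tertiles of JUNB sites.

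MITF sites without JUNB lay at gene ends far more often than JUNB sites without MITF. Gene ends, here the 1 kb on either side of the 2 boundaries of a protein-coding gene, held the summit of 40.3% of MITF-alone sites (38.8 to 41.8) and of 7.05% of JUNB-alone sites (6.79 to 7.32), a difference of 33.3 percentage points (31.7 to 34.8). Sites of both factors took a middle place, with 27.9% of the MITF sites and 27.3% of the JUNB sites at gene ends. The median distance from the summit to the nearest gene end was 13.1 kb at MITF sites that overlapped JUNB, 5.27 kb at MITF-alone sites and 33.2 kb at JUNB-alone sites. Measured from tabulated transcription starts, on the chromosomes for which starts were at hand, 37.2% of MITF-alone and 6.18% of JUNB-alone sites lay within 1 kb. The rest of the MITF-alone sites divided into 26.7% inside gene bodies and 33.0% outside genes, against 43.6% and 49.4% of JUNB-alone sites.

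**Figure D1:**
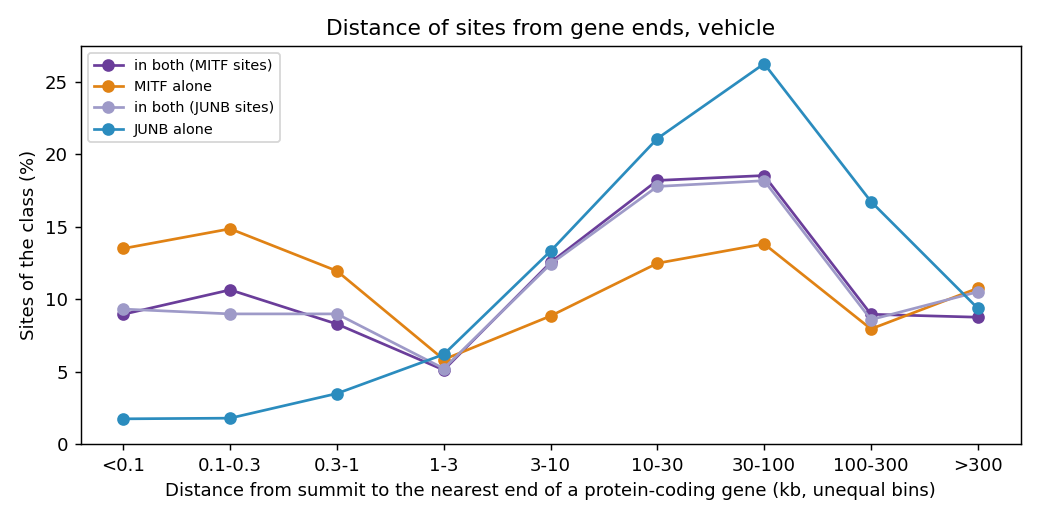
Share of sites (%, vertical axis) by distance from the summit to the nearest end of a protein-coding gene (kb, unequal bins on the horizontal axis), for sites of both factors (1484 MITF and 1513 JUNB sites), MITF alone (4126) and JUNB alone (36759). Within 0.1 kb of a gene end lie 13.5% of MITF-alone and 1.75% of JUNB-alone sites, while 26.2% of JUNB-alone sites lie at 30 to 100 kb.

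Sites of both factors were acetylated more often than sites of either factor alone. Vehicle H3K27ac overlapped 73.2% (70.9 to 75.4) of the MITF sites that overlapped JUNB and 72.5% of their JUNB partners. It overlapped 59.2% (57.7 to 60.7) of MITF-alone sites and 32.1% (31.6 to 32.6) of JUNB-alone sites, a difference of 27.1 points (25.5 to 28.7). With JUNB shortened to the length of the MITF list, that difference was 7.50 points.

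The factors differed in acetylation at gene ends. There, 95.3% of MITF-alone sites (1585 of 1663) and 76.6% of JUNB-alone sites (1985 of 2592) were acetylated, and the shares for sites of both factors were 95.9% of MITF sites and 95.6% of JUNB sites. At tabulated transcription starts the shares were 96.7% for MITF alone and 86.2% for JUNB alone. Away from gene ends, 64.4% of MITF sites with JUNB were acetylated, against 34.8% of MITF-alone sites, a difference of 29.6 points (26.1 to 32.9). Without gene-free stretches these shares were 69.2% and 40.6%. Their JUNB partners were acetylated at 63.8%, against 28.7% of JUNB-alone sites, a difference of 35.1 points (32.2 to 37.9). Without gene-free stretches they were 68.4% and 29.0%. The direction between the factors alone depended on the list there. MITF alone minus JUNB alone was 6.10 points (4.18 to 8.07) with all sites and 11.5 points without gene-free stretches. It was -1.90 points among sites with a -log10 q of at least 5, and -12.8 points with lists of equal length.

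**Figure D2:**
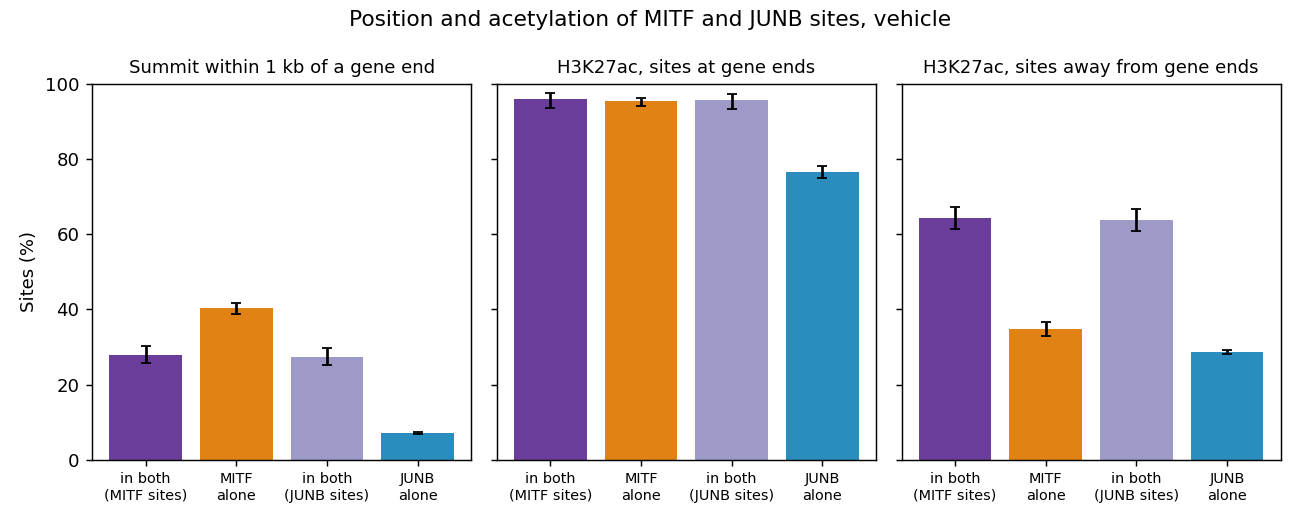
Share of sites (%, bars with 95% Wilson intervals) at gene ends in the left panel, and with vehicle H3K27ac at gene ends (middle) and away from them (right), for sites of both factors (MITF and JUNB sites drawn separately), MITF alone and JUNB alone. Away from gene ends the bars for both factors stand at 64.4% and 63.8%, above 34.8% for MITF alone and 28.7% for JUNB alone.

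Stronger JUNB-alone sites were acetylated more often, and stronger MITF-alone sites were not. Away from gene ends, the acetylated share of JUNB-alone sites was 15.7%, 26.2% and 44.2% in the weakest, middle and strongest tertile of the JUNB list. For MITF alone the same tertiles of the MITF list gave 42.6%, 30.8% and 31.1%, and without gene-free stretches 55.0%, 35.0% and 33.7%. At MITF sites that overlapped JUNB, the share was 76.1%, 67.5% and 55.6%, and without gene-free stretches 77.3%, 67.9% and 65.2%, above MITF alone in every tertile either way. At JUNB sites that overlapped MITF, the share was 71.4%, 61.6% and 63.2% in the JUNB tertiles, above JUNB alone in each. Away from gene ends these JUNB sites were stronger, with a median -log10 p of 21.8, against 10.9 for JUNB alone.

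**Figure D3:**
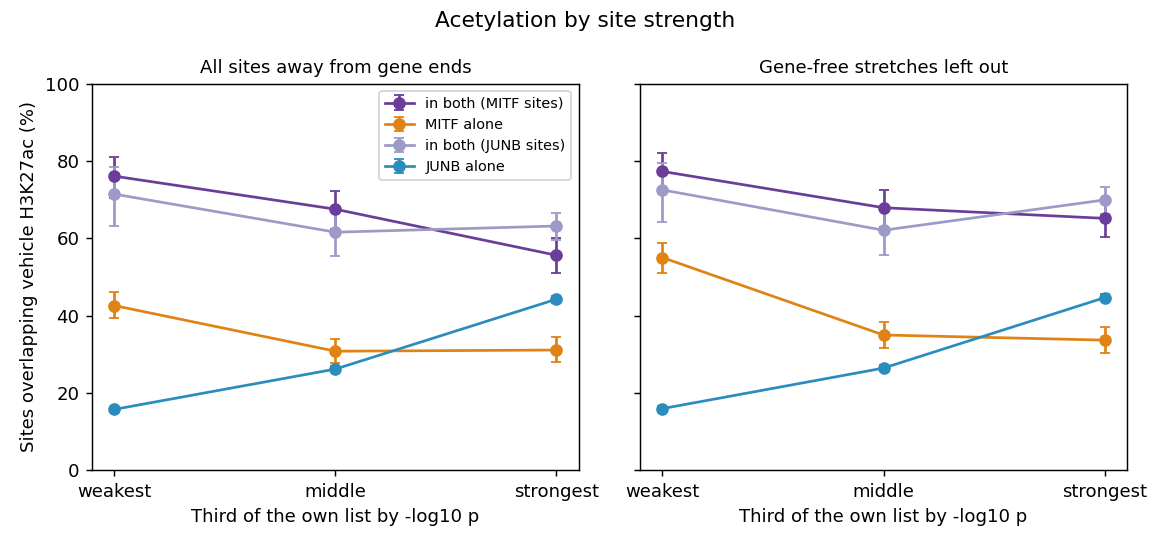
Share of sites away from gene ends that overlap vehicle H3K27ac (%, points with 95% Wilson intervals) by tertile of -log10 p within the own list, with all such sites on the left and gene-free stretches left out on the right. JUNB-alone sites go from 15.7% in the weakest to 44.2% in the strongest tertile, and MITF-alone sites from 42.6% to 31.1%.

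Acetylated regions had a higher fold enrichment under MITF sites than under JUNB-alone sites, mostly away from gene ends. The H3K27ac region under a site had a median fold enrichment over local background of 18.8 at MITF sites that overlapped JUNB, 23.2 at MITF-alone sites and 10.6 at JUNB-alone sites. At gene ends the medians were 26.8, 25.9 and 23.0, and away from gene ends 14.1, 16.2 and 9.27. Seen from the mark, 13.1% of the 16452 H3K27ac regions near gene ends held an MITF site, 16.7% held a JUNB site and 3.87% held sites of both. Of the 62586 regions away from gene ends, 2.28% held MITF, 16.2% held JUNB and 1.14% held both. Among acetylated regions away from gene ends that held MITF (1428), 716 thus also held JUNB.

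The E-box and AP-1 elements divided the promoters with MITF alone from those with JUNB alone. Windows were assigned to a factor when its summit fell inside them, and neighbouring windows can share a summit. The 1067 windows with an MITF summit rest on 921 summits, and the 1130 with a JUNB summit on 996. CACGTG was present in 28.1% of 224 windows with an MITF summit at a site of both factors and in 36.8% of 843 windows with MITF alone (310 windows, or 36.7% of their 731 summits). It was found in 6.92% of 911 windows with JUNB alone, and in 8.32% of all 22012 promoter windows. TGANTCA was present in 12.9% of the windows with an MITF summit at a site of both factors, in 2.61% with MITF alone and in 29.7% with JUNB alone (271 windows, or 31.3% of their 818 summits), and in 6.16% of all windows. TCATGTG was rarer, with 4.02%, 3.91% and 1.10% in the same order, beside 2.32% of all windows. The CRE-type element TGACGTCA stood at 6.25%, 2.49% and 4.28%, beside 2.25% of all windows. As a comparison, the E-box of another form, CAGCTG, stood at 15.2%, 16.5% and 20.3%, beside 18.02% of all windows. The 219 windows with a JUNB summit at a site of both factors held CACGTG more often (21.5%) than TGANTCA (12.3%). Both strands were searched, and none of the 5 elements contains another.

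**Figure D4:**
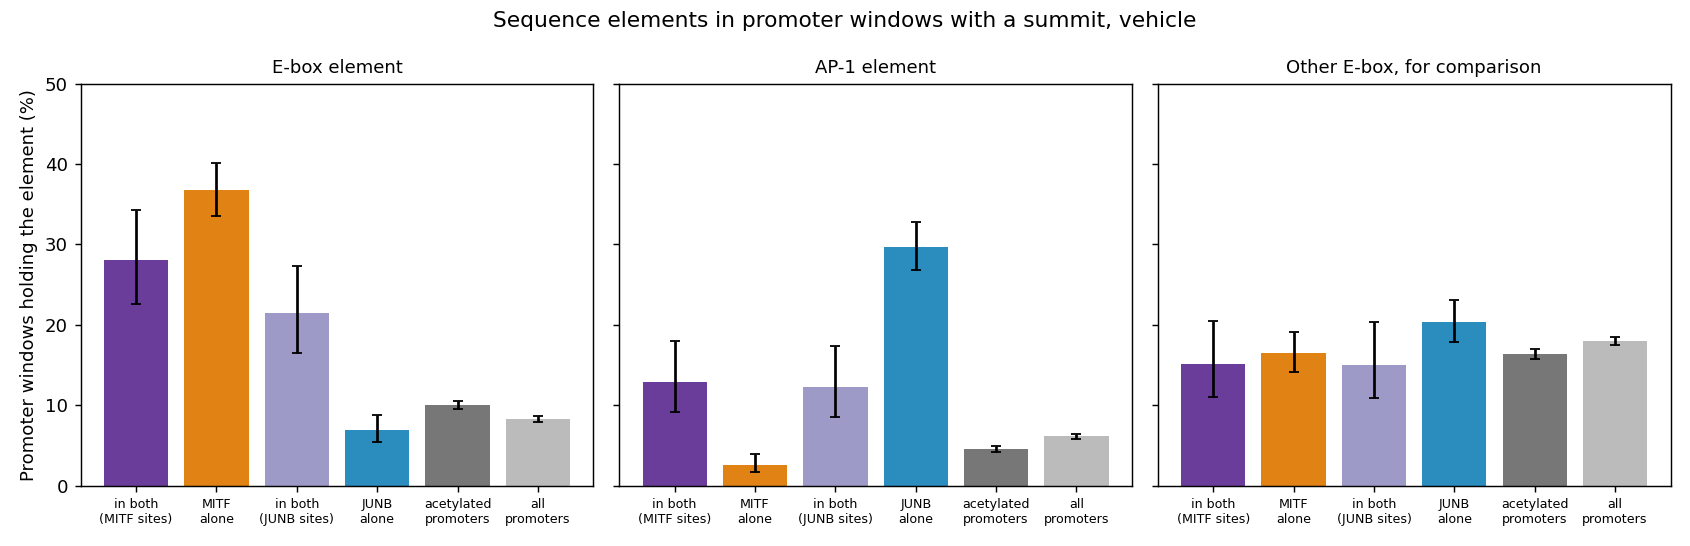
Share of 300-base promoter windows that hold an element (%, bars with 95% Wilson intervals), for windows with an MITF or JUNB summit of each kind, for windows that overlap vehicle H3K27ac (13441) and for all windows (22012). The E-box CACGTG stands at 36.8% in MITF-alone windows, the AP-1 element TGANTCA at 29.7% in JUNB-alone windows, and the other E-box, CAGCTG, between 15.1% and 20.3% in all of them.

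The elements also lay close to the summits. In the 373 MITF-summit windows with CACGTG, the nearest copy was a median of 21.5 bp from the summit and within 50 bp in 72.7%. For CAGCTG in MITF windows these values were 71.5 bp and 34.1%. In the 298 JUNB-summit windows with TGANTCA, the median distance was 18 bp and 79.5% lay within 50 bp. The share of windows with TGANTCA differed by JUNB strength, with 7.16%, 18.04% and 54.0% of windows in the weakest, middle and strongest tertile. CACGTG stood at 24.7%, 39.0% and 41.1% in the tertiles of MITF windows.

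The other immunoprecipitations separated sites of both factors from the rest. TGFB1-treated ATF3 peaks overlapped 68.1% of MITF sites with JUNB and 69.0% of their JUNB partners, against 13.9% of MITF-alone sites and 43.1% of JUNB-alone sites. For SMAD2/3 in TGFB1-treated cells, the shares were 48.4% and 48.6%, against 16.3% and 12.7%. In vehicle cells, ATF3 overlapped 30.6% and 32.4%, against 10.2% and 12.5%, in a list that has 40.4% of its peaks in gene-free stretches. Within acetylated sites away from gene ends, TGFB1-treated ATF3 overlapped 72.6% of MITF sites with JUNB, 19.8% of MITF-alone sites and 61.9% of JUNB-alone sites.

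The TGFB1-treated MITF and JUNB libraries, with the same antibodies and dates, gave a second look at the division, with more overlap on the MITF side. There, 2494 of 4968 MITF sites (50.2%, 48.8 to 51.6) overlapped a JUNB site in TGFB1-treated cells, against 26.5% in vehicle cells, and 3.92% of JUNB sites overlapped MITF, against 3.95%. The JUNB list of treated cells is longer, at 64146 sites, and the part of list length in this was not tested. The MITF list of treated cells overlapped 59.6% of vehicle MITF sites with JUNB and 42.9% of MITF-alone sites, and the JUNB list of treated cells overlapped 90.1% of vehicle JUNB sites with MITF and 70.0% of JUNB-alone sites. The treated JUNB list also overlapped 23.1% of the sites called MITF alone in vehicle cells. Divided by the treated lists themselves, 41.6% of MITF-alone and 9.44% of JUNB-alone sites lay at gene ends, a difference of 32.1 points (30.2 to 34.1). Treated-cell H3K27ac overlapped 60.5% of MITF-alone and 34.5% of JUNB-alone sites, a difference of 25.9 points (24.0 to 27.9).

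The strongest sites of both factors lay away from gene ends. None of the 8 with the best combined rank had its summit within 1 kb of a gene end, and 6 of 8 were acetylated. All 8 overlapped ATF3 in both treatments and SMAD2/3, MITF and JUNB in TGFB1-treated cells. Over the class, vehicle ATF3 overlapped 30.6%. In TGFB1-treated cells the class shares were 68.1% for ATF3, 48.4% for SMAD2/3, 59.6% for MITF and 88.9% for JUNB. The highest ranked lay inside SQSTM1, which encodes the autophagy receptor p62, at chr5:179818816-179819299 with an MITF fold enrichment of 35.9. Its JUNB partner had a fold enrichment of 25.2, with the summits 8 bp apart. Others lay inside MYLK (myosin light chain kinase) and PLB1 (a phospholipase), 6.84 kb outside SWAP70, 28.9 kb outside GRAPL, 32.1 kb outside NID1 (the basement membrane protein nidogen), 40.3 kb outside ANKRD10 and 94.4 kb outside SYK (a tyrosine kinase). The NID1 site was named by its -log10 p. Its MITF fold enrichment was 5.55, below the list median of 6.38, and its JUNB partner stood at 6.91. The MITF fold enrichments of the others ran from 18.3 to 35.9. Why the NID1 site had a high -log10 p at a low fold enrichment was not tested. Fold enrichments of MITF and JUNB come from separate lists and are not compared in size.

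The 8 strongest MITF-alone sites lay mostly at gene ends, unlike the strongest tertile of the class. Over all MITF-alone sites, 40.3% lay at gene ends, 59.2% overlapped H3K27ac and 42.9% recurred in the treated MITF list. In the strongest tertile of the MITF list, 38.1% of MITF-alone sites lay at gene ends and 55.1% overlapped H3K27ac. Of the 8 named by -log10 p, 7 lay within 1 kb of a gene end, all 8 overlapped H3K27ac and all 8 recurred in the treated MITF list. A site inside ZBTB40 had the highest -log10 p, at chr1:22451634-22452320 with a fold enrichment of 110.0, and was the single one away from a gene end. ANGEL1 (90.9), ZDHHC5 (a palmitoyltransferase, 82.5), SIRT6 (a nuclear deacetylase, 71.8), NDUFA11 (a subunit of respiratory complex I, 69.3), UCKL1 (60.0), VPS51 (56.3) and PGS1 (an enzyme of cardiolipin synthesis, 52.2) followed in fold enrichment. Of these 8 sites, 7 overlapped the JUNB list of TGFB1-treated cells, beside 23.1% of all MITF-alone sites. By the definition of the class, none could overlap the vehicle JUNB list, so this is no measure of JUNB gain. The treated list is also longer, with 64146 against 38272 sites.

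The 8 strongest JUNB-alone sites lay mostly away from gene ends, as did the class. Over all JUNB-alone sites 7.05% lay at gene ends, and in the strongest tertile of the JUNB list 4.73% did. Of the 8 named, 1 lay at a gene end, at TNFRSF12A, which encodes the receptor of the cytokine TWEAK (fold enrichment 50.2). The others lay inside WNT7B (a WNT ligand, 47.3), PECAM1 (an endothelial adhesion molecule, 44.8), SSUH2 (33.6), CSRNP1 (31.7) and EHD1 (a regulator of endocytic recycling, 26.1), 12.4 kb outside SCN4A and 50.4 kb outside ANKRD10. H3K27ac overlapped 7 of the 8, and the site near SCN4A was the exception. The mark overlapped 32.1% of all JUNB-alone sites and 45.9% of those in the strongest tertile. ANKRD10 was named for both kinds, since it had a site of both factors 40.3 kb away and a JUNB-alone site farther out.

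Gene lists were counted by a summit in the gene or within 10 kb of it. Over all 19974 protein-coding genes, 23.3% had an MITF site, 55.9% a JUNB site and 6.10% an MITF site that overlapped JUNB. With JUNB shortened to the number of MITF sites, 14.5% had a JUNB site. An MITF summit lay within 1 kb of an end of 12.0% of genes, and a JUNB summit of 15.6%. Genes with H3K27ac at an end, 13160 in number, had higher shares throughout, with MITF at 30.5%, JUNB at 63.8% and MITF overlapping JUNB at 8.12%. Long genes and genes with neighbours collect sites more readily, so counts are read beside these shares only.

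Lysosomal, proton pump and autophagy genes stood highest for MITF. Of 50, 40 had an MITF site and 34 had one at a gene end, while 38 had a JUNB site and 14 had one at a gene end. All 50 carried H3K27ac at an end, beside 65.9% of all genes. With JUNB shortened to equal length, 11 had a JUNB site. MITF overlapped JUNB at 12 genes. At LAMP1, the MITF site (fold enrichment 34.3) at the transcription start shown above overlapped a JUNB site of 5.10. FLCN, a regulator of nutrient signalling at the lysosome, had an MITF site of 12.2 with a JUNB partner of 3.54. MITF without JUNB within 10 kb was found at 9 genes, beside 6.32% of all genes. RRAGC, a RAG GTPase that recruits mTORC1 to lysosomes, had an MITF site of 29.7 and no JUNB site. MCOLN1, the lysosomal calcium channel, had 2 MITF sites and no JUNB site. The MITF sites of HEXA (a subunit of beta-hexosaminidase, 16.9) and VPS33A (a subunit of the HOPS tethering complex, 17.9) lay at gene ends without overlapping JUNB. Among the relatives of MITF, TFEB had an MITF site of 7.02 at a gene end, while TFE3 had no MITF site and a JUNB site of 14.8 at its start.

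Pigment genes stood close to the background for MITF. Of 25, 6 had an MITF site and 19 had a JUNB site, with 10 when JUNB was shortened. All 6 with MITF also had JUNB within 10 kb. They were MITF itself, GPNMB, PMEL, CDK2, MC1R and GPR143, and PMEL and CDK2 share a single MITF site. GPNMB had an MITF site of 12.7 at its start, overlapping a JUNB site of 8.49, where both kinds of element lie in the window shown above. The melanin enzymes TYR, TYRP1 and DCT had no MITF site, and TYRP1 and DCT had 1 and 2 JUNB sites. OCA2, a melanosomal transporter, had 3 JUNB sites with a highest fold enrichment of 18.5 and no MITF site. MET, the receptor of hepatocyte growth factor, had 11 JUNB sites and no MITF site. The MITF gene carried 1 MITF site at its edge (chr3:69739224-69739507, fold enrichment 18.3), which was acetylated and did not overlap JUNB, and 6 JUNB sites, none of which overlapped MITF.

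AP-1 genes had the highest share of overlapping sites among the 10 lists. Of 19, 10 had an MITF site, 14 had a JUNB site and 7 had an MITF site that overlapped JUNB (36.8%). FOSL1 and FOSL2, the FRA subunits, had overlapping sites at their gene ends, where the JUNB fold enrichments were 14.4 and 21.7 and the MITF fold enrichments 5.19 and 3.51. ATF3 had 1 MITF site, overlapping JUNB, and 9 JUNB sites. The JUNB gene had 2 MITF sites and 4 JUNB sites, and 1 of each overlapped. ATF4 and JUND each had 2 MITF sites and none of them overlapped JUNB.

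Nearly every gene of the dedifferentiated state had a JUNB site. Of 28, 26 had a JUNB site and 15 had one at a gene end, while 8 had an MITF site and 2 had one at a gene end. The JUNB share was 92.9%, beside 83.3% of housekeeping genes and 55.9% of all genes. At a gene end it was 53.6%, below the 61.1% of housekeeping genes and above the 15.6% of all genes. With JUNB shortened, 14 had a JUNB site (50.0%), beside 11.1% of housekeeping genes and 14.5% of all genes. AXL, a receptor tyrosine kinase of invasive melanoma, had 7 JUNB sites with a highest fold enrichment of 41.7, overlapped by an MITF site of 5.93. CD44, the hyaluronan receptor, had a JUNB site of 25.0 overlapped by an MITF site of 6.81. EGFR had 11 JUNB sites and 2 MITF sites and no overlap between them. NRG1, a ligand of ERBB receptors, had 16 JUNB sites, and LOXL2, which crosslinks collagen, had 8 JUNB sites and no MITF site.

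Most matrix and MAPK genes had JUNB sites, at shares near that of housekeeping genes with the full JUNB list but not with the shortened one. The shares were 80.6% and 85.0%, beside 83.3% of housekeeping genes and 55.9% of all protein-coding genes. A JUNB summit at a gene end was found for 65.0% of MAPK genes, beside 61.1% of housekeeping genes. Of 31 matrix and adhesion genes, 25 had JUNB, 9 had MITF and 7 had an MITF site overlapping JUNB. TIMP2, an inhibitor of metalloproteinases, had 3 MITF sites, of which 2 overlapped JUNB, with fold enrichments up to 12.0. ITGA3, an integrin subunit of laminin receptors, had 7 JUNB sites with a highest of 29.6 and no MITF site. Of 20 MAPK feedback and output genes, 17 had JUNB and 13 had it at a gene end, while 9 had MITF and 4 had it at a gene end. SPRED2 had 9 JUNB sites, including the one at the internal start shown above (18.1), and 1 MITF site, which overlapped JUNB elsewhere in the gene. ETV1, an ETS factor, had 2 JUNB sites with a highest of 21.9 and no MITF site.

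Genes of DNA replication and of mitochondrial respiration had MITF at their ends more often than JUNB. Of 24 replication, repair and cell cycle genes, 9 had MITF (7 at a gene end) and 15 had JUNB (2 at a gene end, and 1 gene when JUNB was shortened). LIG1, which encodes DNA ligase 1, had an MITF site of 12.5 at its end, and the endonuclease subunit gene EME1 had one of 5.81 and no JUNB site. Of 22 respiration genes, 6 had MITF, all at a gene end, and 12 had JUNB, with 3 at a gene end. None had overlapping sites. At a gene end, MITF stood at 29.2% and 27.3% of the 2 lists, beside 12.0% of all genes. JUNB stood there at 8.33% and 13.6%, beside 15.6% of all genes. H3K27ac lay at an end of 23 of the 24 replication genes and of all 22 respiration genes. Gene-end shares over all genes with H3K27ac at an end were not computed. Within 10 kb, MITF was found at 37.5% and 27.3% of the 2 lists, beside 30.5% of all genes with H3K27ac at an end. For JUNB the shares were 62.5% and 54.5%, beside 63.8%. COX5A (8.17), UQCRC2 (8.50), TFAM and NDUFS3 had MITF and no JUNB. PPARGC1A, the coactivator of mitochondrial genes, had 18 JUNB sites and no MITF site. UQCRC1 shared its strongest JUNB site with the neighbouring collagen gene COL7A1.

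Housekeeping genes and genes of other cell types were counted for comparison. Of 18 housekeeping genes, 7 had MITF (4 at a gene end) and 15 had JUNB (11 at a gene end). With JUNB shortened, 2 had JUNB. Of 18 genes of other cell types, 1 had MITF and 8 had JUNB. The MITF site was in or near CDH5, an endothelial cadherin. The JUNB sites included strong ones at PECAM1 and at PTPRC (the leukocyte phosphatase CD45, 37.0), and 2 of the 18 genes carried H3K27ac at an end.

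**Figure D5:**
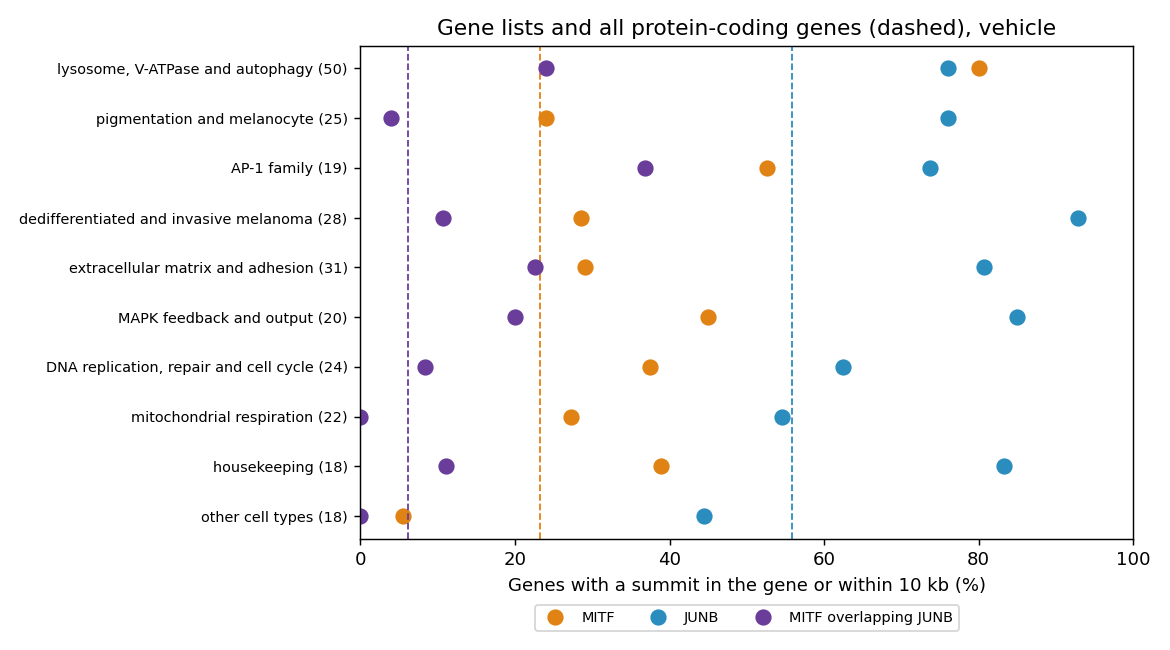
Share of each gene list (%, horizontal axis, number of genes in brackets) with a summit of MITF, of JUNB, or of MITF at a site overlapping JUNB in the gene or within 10 kb, with dashed lines at the shares of all protein-coding genes (23.3%, 55.9% and 6.10%). Lysosome, V-ATPase and autophagy genes stand at 80.0% for MITF, and dedifferentiated melanoma genes at 92.9% for JUNB.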

How the data were processed

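Chromatin immunoprecipitation was compared in A375 cells, with 1 library for each antibody and treatment. Per the submitters' processing notes, the tools were Bowtie and MACS2 (2.0) and the build was GRCh38. Their role, order and settings, and the input used as control, are not given in the sources used here. The fold enrichment, a ratio of the pileup to the local background at the summit, is the caller's value as deposited by the authors. The -log10 p and -log10 q values are also those the authors deposited, with a lowest -log10 q near 1.3 in every list. Their use was limited to ordering, filtering and describing sites of the same list. Pileups were solved from fold enrichment and -log10 p and were whole within 0.02 reads for 100% of sites in the MITF and JUNB lists.

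Analysis used numpy 2.4.6 and pandas 2.3.3 under Python 3.11.15, with scipy 1.17.1 for Poisson tails and matplotlib 3.10.9 for figures. Sites overlapped when they shared at least 1 bp. Gene positions came from a RefSeq table of 19974 protein-coding genes on GRCh38.p14 without strand, so both gene ends stood for the promoter (1 kb). Promoter sequences and starts came from a RefSeq table that covers 15812 of these genes, and chromosomes without entries were left out of shares measured from starts. Overlaps and intervals were tested on simulated data. The members, the 10 gene lists (255 entries, 253 genes) and the alternatives were chosen with earlier results of these data known.

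Named genes were those of the 8 sites of highest -log10 p for each factor alone, of the 8 sites of both factors with the best summed rank (each with a gene within 100 kb), the genes of the factors themselves, and up to 5 members of each list for each kind of site. Promoter windows were those of the 3 strongest named genes of each kind, of which 2 are printed. A gene that the rule names is not reported here. In the 10 lists, genes named beyond that rule were chosen after their values were seen, for their known roles. Alternatives were reciprocal overlap, summit distance, a -log10 q of at least 5, equal list lengths, 200 bp windows, other distances from genes and the removal of gene-free stretches.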

Additional observations from a re-analysis of the deposited data

Results flagged for a closer look

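Signal was listed outside the chromosomes compared. The MITF list held 85 peaks and the JUNB list 242 peaks that lay off chromosomes 1 to 22 and X, and these entered no comparison.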

How the results depend on the processing

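The share of MITF sites overlapping JUNB (26.5%) was 15.0% with 50% reciprocal overlap, 17.0% with summits within 100 bp, 24.1% at a -log10 q of at least 5, 8.29% with lists of equal length and 22.6% with 200 bp windows. The share of JUNB sites overlapping MITF (3.95%) was 2.20%, 2.50%, 3.59%, 8.32% and 3.32% under the same settings. The gene-end difference of 33.3 points was 29.6 within 500 bp, 31.0 from starts alone and 36.9 without gene-free stretches. The H3K27ac difference of 27.1 points was 19.8 at a -log10 q of at least 5, 7.50 with equal lengths, 29.6 with 200 bp windows, 29.8 with the summit inside the region and 32.2 without gene-free stretches. Away from gene ends, where the alternatives were chosen after seeing the data, the difference of 6.10 points was 11.5 without gene-free stretches and turned to -1.90 at a -log10 q of at least 5 and to -12.8 with equal lengths. The lysosomal genes with JUNB (38) were 11 with equal lengths. The cause was not tested in any of these. The other 13 results moved by less than their intervals or by under 1.5 times. No paired analysis was possible because each group has 1 library, and for the same reason no replicate could be left out. Median pileups at called summits were 13 reads for MITF and 19 for JUNB, and library depth was not measured. Weak sites of either factor can be missing from a list, so a site called alone is one not detected in the other list.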

Other observations

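The promoters with the strongest summits differed between the factors in their elements. This set was chosen after its values were seen, and some windows share a summit. Of the 20 promoter windows with the MITF summits of highest -log10 p, which rest on 17 summits, 3 held CACGTG, at UCKL1, NDUFA11 and ASPSCR1, and none held TCATGTG or TGANTCA. In the strongest tertile of MITF windows as a whole, CACGTG was present in 41.1% of 355. Of the 20 windows with the JUNB summits of highest -log10 p, which rest on 19 summits, all 20 held TGANTCA and 2 held CACGTG.

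Sites of both factors that lacked acetylation away from gene ends still overlapped ATF3 and SMAD2/3 of TGFB1-treated cells. Of 381 such MITF sites, 78.0% overlapped TGFB1-treated ATF3 and 52.2% overlapped TGFB1-treated SMAD2/3, against 6.92% and 10.2% of 1605 unacetylated MITF-alone sites and 35.8% and 5.80% of 24350 unacetylated JUNB-alone sites. In the same order, 19.4%, 21.7% and 1.48% of these sites lay in gene-free stretches. H3K27ac of TGFB1-treated cells overlapped 13.6% of the MITF sites with JUNB, 3.61% of the MITF-alone sites and 8.27% of the JUNB-alone sites among them.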
